A study of Mus musculus with 10 samples.

Results

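The genes of a pair of axon guidance systems were followed in the cerebral cortex of mouse embryos that differ in Gatad2b: Eph receptors with their ephrin ligands, and netrins with the receptors Dcc, Neo1 and Unc5. The gene families were chosen with earlier results of these data known, so the shares of members set beside those of all genes are no blind comparison. Members were defined by gene symbol, as every numbered Epha, Ephb, Efna, Efnb, Ntn, Ntng and Unc5 gene in the deposited matrices together with Dcc and Neo1. This gave 33 of 31053 genes: 9 EphA receptors, 5 EphB receptors, 5 ephrin-A ligands, 3 ephrin-B ligands, 3 netrins, 2 netrin-G genes, 4 Unc5 receptors and the 2 receptors Dcc and Neo1. Ntn3 is not among the symbols.

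Cortices of 10 embryos at E16.5 were profiled by 10x Genomics 3′ single-cell RNA sequencing with 1 library per embryo: 3 WT (gatad2b WT), 4 Het (Gatad2b stop/+) and 3 KO (Gatad2b stop/stop). The stop allele is a germline insertion of a trapping cassette in an intron of Gatad2b, present in all cells on a C57BL/6N-Atm1Brd background. It keeps all exons, so reads from the 3′ end of the gene remain countable and some intact transcript is possible. For the protein, the study reports none detectable by western blot in stop/stop embryonic cerebellum. By immunostaining it reports absent Gatad2b in stop/stop cortex at E16.5. Gatad2b encodes a subunit of NuRD, a complex that joins histone deacetylation to nucleosome remodeling. Levels are given in CPM, the UMIs of a gene scaled to a total of 1000000 UMIs in the cells summed. KO embryos measured between 50.9 and 57.3, Het embryos between 89.8 and 95.7, and WT embryos between 131 and 139 CPM of Gatad2b, in the order of the labels.

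Of 80071 barcodes, 65779 cells were kept, with 82872641 to 123737385 UMIs per embryo, and no pair of libraries shared more than 19 barcodes. Library names carry 2 prefixes whose meaning was not stated. One covers the 3 WT embryos and Het4, the other covers Het1 to Het3 and the 3 KO embryos, so prefix and genotype cannot be told apart in KO against WT. KO against Het1 to Het3 stays within 1 prefix and is given beside it. A fit with prefix as a covariate is given too, and its prefix term rests on Het4 against Het1 to Het3 alone, since all WT embryos carry one prefix and all KO embryos the other. The study speaks of littermates, and no source used here assigns single embryos to litters. Cells were sorted into classes by clusters and marker genes, written as "-like", and the dissected cortex also held striatal inhibitory-like cells (8.8% to 12.9% of the cells of an embryo). Endothelial-like cells were not tested, since an embryo held as few as 11 of them and at least 20 were asked for, and 343 of 600 came from Het3.

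Eph receptors form the largest family of receptor tyrosine kinases. Their ephrin ligands sit in the membrane of neighbouring cells, so that contact signals into both cells and often drives them apart. Ephrin-A ligands hold to the membrane by a lipid anchor and mainly bind EphA receptors, whereas ephrin-B ligands span the membrane and mainly bind EphB receptors and Epha4. Secreted netrins attract axons through Dcc and repel them through Unc5 receptors, and netrin-G proteins are lipid-anchored relatives that bind the synaptic adhesion proteins Lrrc4c and Lrrc4. In cortical projection neurons Unc5c and Dcc take part in the choice between callosal and subcortical axon paths, with the transcription factor Bcl11b (Ctip2) among their regulators.

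NuRD contains methyl-CpG-binding-domain proteins to which Gatad2b binds, and the bases before the transcription start are shown for 3 members to which the results return: Efna5, with the largest decrease in layer V-VI-like cells, Epha7, lower in KO in 5 classes, and Efnb1, higher in 8. Each run holds the 250 bases before the start site, 5′ to 3′ on the gene's strand, from RefSeq on GRCm38.p6, with every CG dinucleotide in capitals.

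Efna5 (chr17:62881318-62881567, minus strand): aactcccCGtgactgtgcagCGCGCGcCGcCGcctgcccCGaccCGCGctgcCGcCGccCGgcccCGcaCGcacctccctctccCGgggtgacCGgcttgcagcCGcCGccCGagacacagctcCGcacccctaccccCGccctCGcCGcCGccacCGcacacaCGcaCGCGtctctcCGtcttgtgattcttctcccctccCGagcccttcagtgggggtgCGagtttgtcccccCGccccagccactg
Epha7 (chr4:28812881-28813130, plus strand): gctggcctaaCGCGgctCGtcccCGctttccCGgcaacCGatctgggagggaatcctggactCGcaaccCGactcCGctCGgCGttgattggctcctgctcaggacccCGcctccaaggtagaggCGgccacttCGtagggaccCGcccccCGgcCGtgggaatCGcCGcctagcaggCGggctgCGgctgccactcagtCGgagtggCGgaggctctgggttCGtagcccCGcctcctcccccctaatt
Efnb1 (chrX:99135811-99136060, plus strand): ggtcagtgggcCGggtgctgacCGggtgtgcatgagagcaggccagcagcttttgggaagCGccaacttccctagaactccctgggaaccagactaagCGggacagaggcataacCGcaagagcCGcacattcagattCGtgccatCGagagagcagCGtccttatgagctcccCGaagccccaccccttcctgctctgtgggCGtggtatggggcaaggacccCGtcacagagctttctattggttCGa

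The Efna5 window holds 32 CG dinucleotides, the Epha7 window shown 25 and the Efnb1 window 13. At least as many were found in 4.58%, 10.7% and 31.5% of all 32851 windows of this length, whose median was 6. Epha7 had a second window (chr4:28812895-28813144) with 23, and 13.3% of all windows had at least as many. Windows were found for 29 of the 33 members (32 windows, median 19.5, range 2 to 46). Dcc, Efnb3, Ntn1 and Unc5d had no entry. The motif GGGCGG, searched on both strands, occurred in 24 of the members' windows (75%) and in 32.7% of all windows. These letters describe the windows only, since neither binding nor methylation was measured.

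In WT cortex the members were spread unevenly over the classes. Levels here are CPM within the class, as mean ± SD of 3 embryos, and compare classes for 1 gene. Among EphA receptors, Epha5 was highest in interneuron-like cells (1920 ± 371), followed by layer V-VI-like (786 ± 64) and layer II-IV-like cells (763 ± 96), whose embryos overlapped. Epha4 was highest in subventricular zone-like intermediate progenitors (441 ± 27) and striatal inhibitory-like cells (413 ± 38), which overlapped, with dividing-like cells next (250 ± 7.5). Epha3 was highest in the same progenitors (270 ± 38), and Epha7 in striatal inhibitory-like cells (94.7 ± 16).

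Among ligands, Efna5 stood at 22.5 ± 4.2 in interneuron-like and 22.5 ± 1.0 in layer V-VI-like cells, which overlapped, and at 4.08 ± 0.90 in layer II-IV-like cells. Efnb1 was highest in radial glia-like cells (144 ± 11) and Efnb2 in layer II-IV-like cells (236 ± 9.1). Among netrin receptors, Unc5c was highest in layer II-IV-like cells (52.1 ± 3.8), then in interneuron-like (38.3 ± 4.5) and layer I-like cells (37.6 ± 2.5), which overlapped with each other. It was low in layer V-VI-like cells (6.69 ± 0.79). Unc5d, a receptor of migrating multipolar neurons, was highest in the intermediate progenitors (239 ± 35), with no overlap with layer II-IV-like cells (80.4 ± 12), and so was Dcc (92.2 ± 17). Ntng1 was highest in radial glia-like cells (69.5 ± 6.6) and stood at 3.28 ± 0.32 in layer II-IV-like cells.

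Mural-like cells, named for pericytes and smooth muscle of vessels, formed 1 cluster that scored nearly as high for meningeal fibroblast markers (4.62 against 4.65). With finer clustering, the cells named mural included a cluster of 133 led by Cldn5, with a median of 56632 UMIs per cell. It scored 4.09 for endothelial and 3.68 for mural markers. Another, of 193 cells with a median of 11187 UMIs, scored 5.47 for meningeal fibroblast and 4.8 for mural markers. Mural-like cells had the highest Unc5b (129 ± 23), Efna1 (33.1 ± 7.3), Ephb4 (25.7 ± 7.2) and Epha2 (16.7 ± 2.9) of the 11 classes compared. How much of these levels came from cells with endothelial markers was not tested. Endothelial-like cells, which are outside these classes, averaged 109, 42, 29.5 and 19.2 for the same genes. Layer I-like Cajal-Retzius cells had the highest Ephb6 (58.9 ± 6.6). In erythroid-like cells, the lowest of the 11 classes for these genes, Epha5 still measured 58.1, Efnb2 17.8 and Epha4 16.1. Microglia-like cells of WT measured 440, 125 and 327 CPM of Epha5 after TMM scaling. Whether free RNA, doublets or expression gave these UMIs was not tested. Ntn5 and Epha1 were nearly silent, with 17 and 38 UMIs over all 10 embryos, and were not tested.

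**Figure D1:**
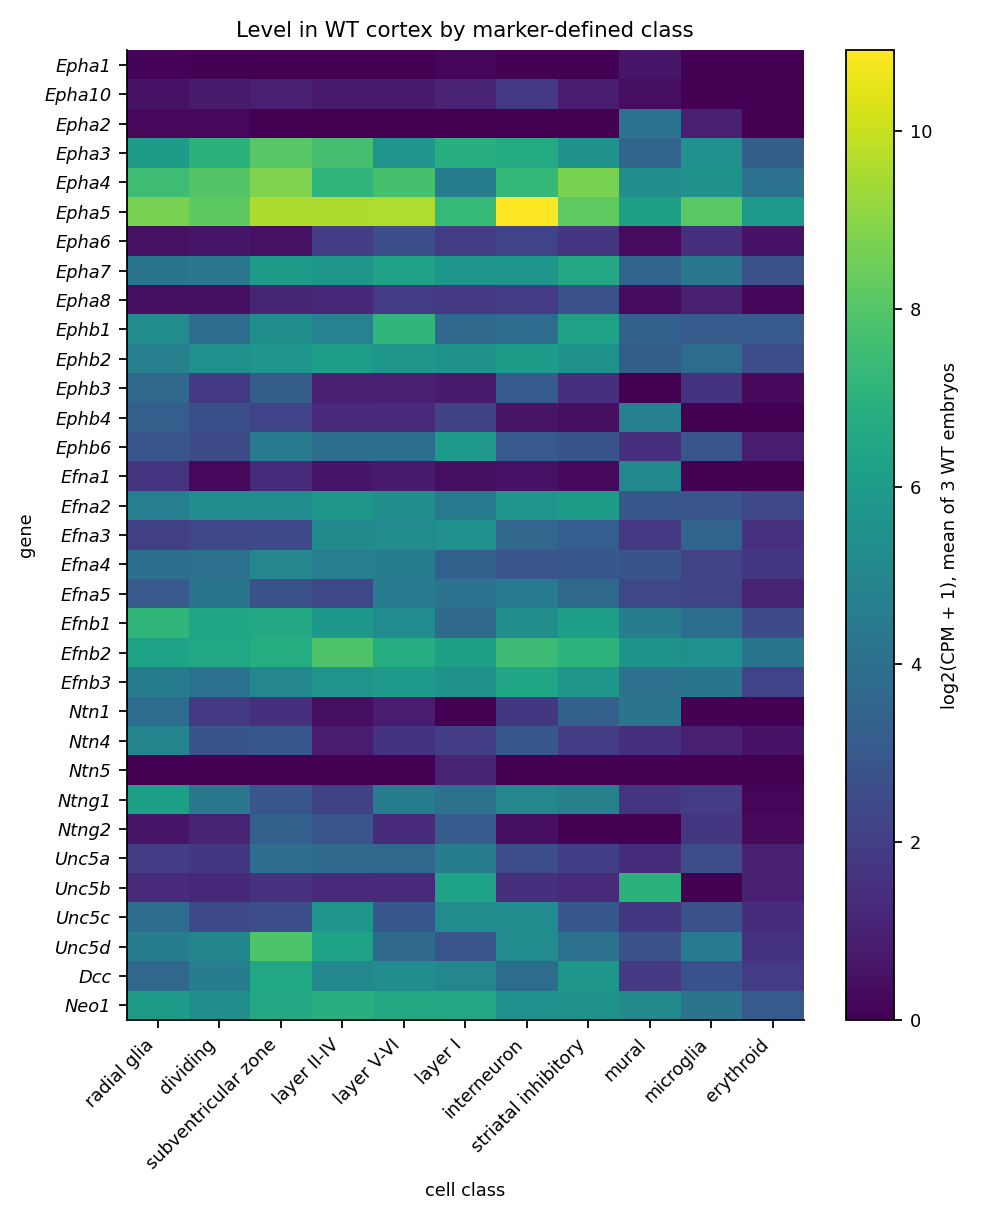
Mean level of each member in 3 WT embryos, as colour (CPM in the class, on a log scale), for 11 classes of cells. Epha5 in interneuron-like cells is the highest value (1920 CPM), and Unc5b, Efna1, Ephb4 and Epha2 have their highest level in mural-like cells.

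Over all cells of an embryo, 7 of 31 tested members were called in KO against WT, 3 higher and 4 lower. A call needed an adjusted p under 0.05 by edgeR's quasi-likelihood test and a log2 fold change beyond 0.25 in size. Of all 17647 genes tested 24.5% were called (12% higher, 12.5% lower), so the share among members was near that of all genes. In sums over all cells, fewer cells of a type and less RNA per cell cannot be told apart. These sums include unnamed clusters, which held 14.8% to 15.4% of the cells of WT and 10.3% to 12.1% of KO embryos. One of them, cluster 15, had a median of 1519 UMIs per cell and held 3.93% to 4.55% of WT and 0.563% to 1.98% of KO cells. With cells of at least 3000 UMIs alone, all 7 calls kept an adjusted p under 0.05. Values of single embryos are CPM after TMM scaling, in the order of the embryo numbers. KO and WT embryos did not overlap for 14 of 31 members and for 52.7% of all genes, so groups that stand apart were common. Het and WT embryos did not overlap for 5 of 31 members and for 19.8% of all genes. Most weight falls on Unc5c (ENSMUSG00000059921, chr3:141465216-141834924), Efna5 (ENSMUSG00000048915, chr17:62604184-62881317), Efnb1 (ENSMUSG00000031217, chrX:99136130-99148991) and Ntng1 (ENSMUSG00000059857, chr3:109780040-110144011), located on GRCm38 by GENCODE vM21, which holds all 33 members.

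Unc5c measured 27.5, 27.2 and 29.1 in WT, 21.4, 24.1, 22.7 and 22.4 in Het and 13.9, 15.7 and 17.2 in KO. All KO embryos were below all Het embryos, and these below all WT embryos (log2 fold change -0.84, SE 0.07, adjusted p 1.58e-05 for KO against WT). The ligand Efna5 measured 10.3, 12.6 and 10.6 in WT, 8.9, 11.7, 11.5 and 9.91 in Het and 4.99, 6.59 and 7.15 in KO. Every KO embryo was below every embryo of the other groups, and WT and Het overlapped (log2 fold change -0.84, SE 0.14, adjusted p 0.00123). Epha6, an EphA receptor, measured 3.44, 3.47 and 4.5 in WT, 2.84, 3.02, 2.83 and 2.94 in Het and 2.27, 1.76 and 3.07 in KO. KO overlapped with Het, and both were below WT (log2 fold change -0.68, SE 0.17, adjusted p 0.0113). Epha7 measured 60, 57.9 and 60.4 in WT, 53, 47, 51.7 and 51.8 in Het and 44.5, 42.2 and 43.9 in KO. The 3 groups were apart, in falling order from WT to KO (log2 fold change -0.45, SE 0.05, adjusted p 6.1e-05).

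Among the ligands that span the membrane, Efnb1 measured 54.8, 50.9 and 55.2 in WT, 67.7, 59, 62.7 and 60.7 in Het and 77.7, 78.9 and 78.7 in KO. The 3 groups were apart, in rising order from WT to KO (log2 fold change 0.55, SE 0.05, adjusted p 3.59e-05). Efnb2 measured 181, 169 and 158 in WT, 181, 168, 179 and 186 in Het and 193, 217 and 212 in KO. KO embryos were above all others, and WT and Het overlapped (log2 fold change 0.29, SE 0.06, adjusted p 0.00381). Epha3 measured 159.7, 125 and 150 in WT, 176, 145, 143 and 152 in Het and 167, 174 and 179.9 in KO. KO was above WT, and Het overlapped with both (log2 fold change 0.26, SE 0.09, adjusted p 0.0446). This call was lost without WT2, WT3, Het2 or any 1 KO embryo, at log2 fold changes between 0.16 and 0.34 over all embryos left out in turn. It was also lost with no filter on low counts (0.25), with doublets removed (0.25) and with at most 5% mitochondrial UMIs (0.24). With prefix as a covariate 5 of the 7 calls kept an adjusted p under 0.05, and those lost were Epha6 (-0.66, adjusted p 0.228) and Epha3 (0.24, adjusted p 0.413).

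**Figure D2:**
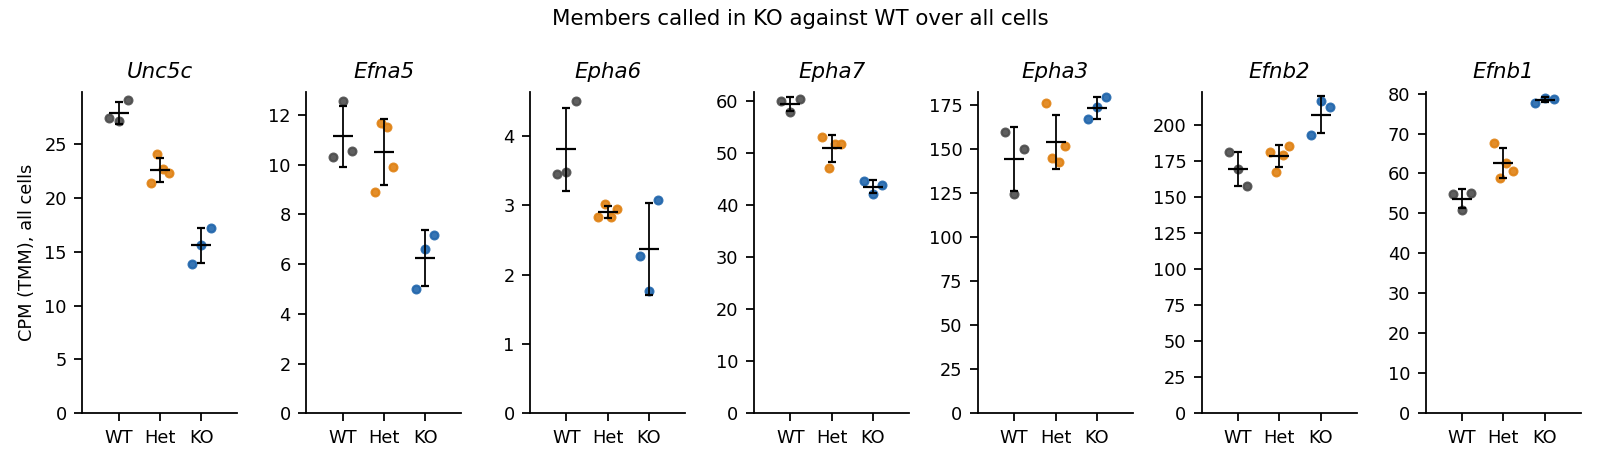
CPM over all cells (vertical axis, TMM-scaled) of the members called in KO against WT, with 1 point per embryo and the mean ± SD of 3 WT, 4 Het and 3 KO embryos. Unc5c, Efna5, Epha6 and Epha7 are lower in KO, and Epha3, Efnb2 and Efnb1 are higher.

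Members not called over all cells were Dcc, Efna1, Efna2, Efna3, Efna4, Efnb3, Epha10, Epha2, Epha4, Epha5, Epha8, Ephb1, Ephb2, Ephb3, Ephb4, Ephb6, Neo1, Ntn1, Ntn4, Ntng1, Ntng2, Unc5a, Unc5b and Unc5d. With the mix of classes held at its mean over embryos, a value without a test, the log2 fold changes were -0.75 for Unc5c, -0.89 for Efna5, -0.67 for Epha6, -0.47 for Epha7, 0.23 for Epha3, 0.31 for Efnb2 and 0.42 for Efnb1.

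Het against WT had 1 of 31 members called over all cells, with 2.98% of all genes. Unc5c was lower, at 27.9 ± 1.0 in WT and 22.7 ± 1.1 in Het (log2 fold change -0.30, adjusted p 0.0327). The call was lost without any 1 WT embryo, Het1, Het2 or Het3, at values from -0.34 to -0.28, and with prefix as a covariate (-0.32, adjusted p 0.262). Within 1 prefix, KO against Het1 to Het3 had 5 of 31 members called, with 6.14% of all genes. Efna5 (-0.78, adjusted p 0.0108) and Unc5c (-0.54, 0.00314) were lower in KO, and Epha5 (0.25, 0.0206), Efnb1 (0.31, 0.00565) and Dcc (0.37, 0.0125) were higher. Without Het3 neither Epha5 nor Dcc was called, nor Epha5 without Het2 or KO3. These comparisons share embryos with KO against WT.

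Within classes, 68 of 230 tests of a member in 1 of 11 classes were called in KO against WT, 40 higher and 28 lower, with 14.7% of the tests of all genes over the same classes. In all, 26 of 31 members were called in at least 1 class, as were 49.7% of all genes. Efnb1 was higher in 8 of 9 classes, and Epha7 lower in 5 of 9, counts without a share of all genes beside them. The classes come from the same embryos. With prefix as a covariate, both kept an adjusted p under 0.05 in layer II-IV-like and layer V-VI-like cells alone. Efna4, Epha4, Neo1, Ntng1, Unc5c and Unc5d were higher in at least 1 class and lower in at least 1 other, as were 3.55% of all genes. None of these members kept an adjusted p under 0.05 in both directions with prefix as a covariate. The higher value of Unc5d also had the opposite sign within single clusters (below). Efna1, Epha2, Epha8, Ephb4 and Ntng2 were called in none of the classes in which they were tested. With prefix as a covariate, 24 of the 68 calls kept an adjusted p under 0.05, of which 12 were in layer II-IV-like and 9 in layer V-VI-like cells, and interneuron-like, dividing-like, striatal inhibitory-like and mural-like cells kept 0 calls. This fit leans on Het4 alone and does not separate prefix from genotype. KO and WT embryos did not overlap for 21 of 30 members in layer II-IV-like cells (55.3% of all genes). The same held for 15 of 30 in layer V-VI-like (46.2%) and 6 of 27 in interneuron-like cells (31.4%). It held for 14 of 26 in the intermediate progenitors (37.8%) and 11 of 23 in radial glia-like cells (39.7%). Striatal inhibitory-like cells had 8 of 25 (37.4%), layer I-like cells 9 of 23 (25.3%) and mural-like cells 2 of 13 (18.6%).

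**Figure D3:**
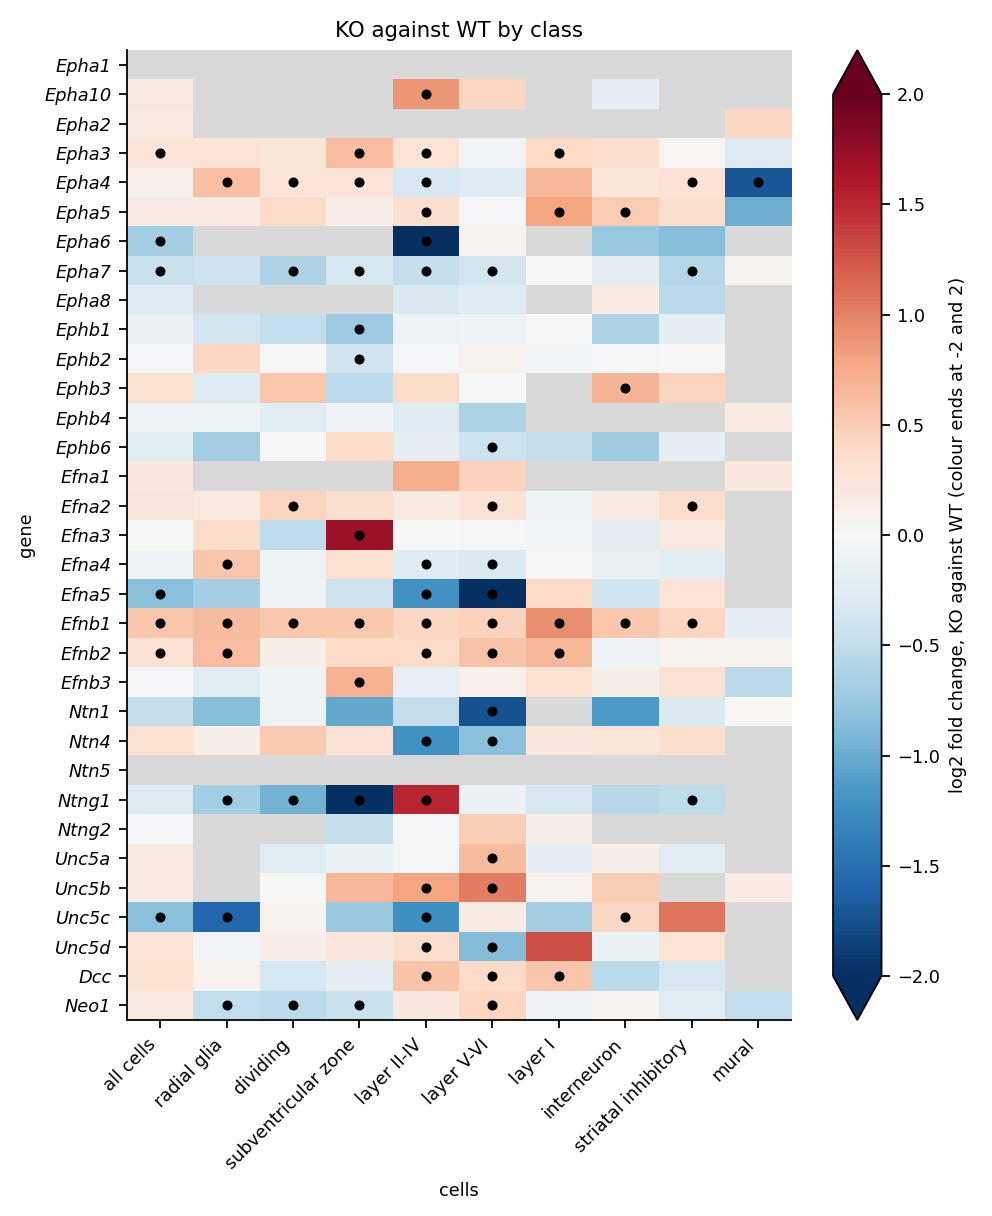
Log2 fold change of each member in KO against WT (colour, red higher in KO and blue lower), over all cells and within classes, with a dot where the gene was called and grey where it was too low to test. Efnb1 is higher with a dot in 8 classes, whereas Unc5c and Ntng1 hold dots in both directions.

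Layer II-IV-like cells are named for neurons that mostly send axons within the cortex, though not all of their clusters need hold settled neurons (below). In them 16 of 30 members were called in KO against WT, 9 higher and 7 lower, with 30.3% of all 14437 genes (14.2% higher, 16.1% lower). The median size of the log2 fold change was 0.35 over members and 0.20 over all genes. Unc5c measured 47.7, 51.6 and 54.8 in WT, 41.7, 47, 47.2 and 43.1 in Het and 22.7, 17.6 and 25.4 in KO. No KO embryo reached the lowest Het or WT embryo (log2 fold change -1.23, SE 0.10, adjusted p 4.28e-07). Epha6 measured 2.91, 2.26 and 3.42 in WT, 1.9, 1.84, 1.77 and 1.16 in Het and 0.622, 0.685 and 0.835 in KO, on 343 UMIs in WT and 68 in KO. The 3 groups were apart, in falling order (log2 fold change -1.99, SE 0.23, adjusted p 1.62e-05). Efna5 measured 3.58, 5.07 and 3.42 in WT, 3.1, 5.99, 4.26 and 2.53 in Het and 1.93, 1.78 and 1.52 in KO. Every KO embryo was below the others (log2 fold change -1.21, SE 0.28, adjusted p 0.00341).

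Netrin-family genes moved in both directions here. Ntng1 measured 3.18, 3.59 and 2.93 in WT, 5.37, 4.93, 5.4 and 5.21 in Het and 9.6, 7.3 and 10.9 in KO. WT, Het and KO followed each other without overlap (log2 fold change 1.52, SE 0.13, adjusted p 1.13e-06). Ntn4, a netrin of basement membranes, measured 0.618, 1.02 and 0.638 in WT, 0.653, 0.822, 0.554 and 0.50 in Het and 0.326, 0.308 and 0.34 in KO, on 92 UMIs in WT and 31 in KO (log2 fold change -1.22, SE 0.30, adjusted p 0.00514). KO was below all other embryos. Dcc rose from 32.5 ± 3.3 to 48.4 ± 4.6 (log2 fold change 0.57, SE 0.12, adjusted p 0.00203). Unc5b measured 1.81, 0.995 and 1.74 in WT, 2.36, 1.22, 1.63 and 2.05 in Het and 2.67, 2.33 and 2.85 in KO, with KO above WT (log2 fold change 0.79, SE 0.24, adjusted p 0.0166). Its call was lost without WT2 or KO3 (0.56 to 0.96 over all embryos left out), and that of Ntn4 with at most 5% mitochondrial UMIs (-0.76).

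Of the Eph receptors, Epha10, which lacks kinase activity, measured 0.729, 0.874 and 0.493 in WT, 0.937, 0.559, 0.727 and 1.05 in Het and 1.21, 1.44 and 1.27 in KO. KO was above all others (log2 fold change 0.88, SE 0.25, adjusted p 0.0113), on 86 UMIs in WT and 124 in KO. Epha4 fell from 141 ± 7.2 to 111 ± 12 (log2 fold change -0.34, SE 0.07, adjusted p 0.00142), and Epha7 fell as well (-0.47). Epha3 (0.27) and Epha5 (0.32) rose, the latter not called without WT2 or KO3. Of the ligands, Efnb1 (0.41) and Efnb2 (0.39) rose and Efna4 fell (-0.26). With prefix as a covariate 12 of the 16 calls were kept. Those lost were Epha4 (-0.21, adjusted p 0.228), Unc5b (1.02, adjusted p 0.112), Epha3 (0.33, adjusted p 0.0794) and Unc5d (0.20, adjusted p 0.588), and the values of Efna5 (-2.02), Epha10 (1.37), Dcc (1.05), Epha5 (0.62) and Efna4 (-0.40) were larger in size by over 1.5 times. Not called here were Efna1, Efna2, Efna3, Efnb3, Epha8, Ephb1, Ephb2, Ephb3, Ephb4, Ephb6, Neo1, Ntn1, Ntng2 and Unc5a.

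Layer II-IV-like cells comprised 3 clusters whose shares differed between groups, and the members were kept out of the genes used for clustering. Cluster 1 (7719 cells) was led by Unc5d among the genes that mark it, with Sema3c, Nrp1, Rnd2 and the subventricular zone marker Insm1. It scored 0.98 for layer II-IV and 0.47 for subventricular zone markers. At clustering resolution 0.8, a cluster of 2461 cells led by Unc5d and Rnd2 was named subventricular zone. Cluster 1 held 8.73% to 12.2% of the cells of WT embryos and 13.5% to 14.7% in KO. Cluster 0, with Cdh12 and Rbm24 among its leading genes, held 13.6% to 16% and 10.2% to 12.6%. Cluster 8, led by Inhba, held 3.87% to 5.77% and 2.43% to 2.71%. Fits within single clusters were added after the data were seen.

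Unc5d had the opposite sign within clusters to that over the class. Over the class it rose (log2 fold change 0.36, SE 0.13, adjusted p 0.0338), a call lost without WT2, KO2 or KO3 (0.24 to 0.47), with DESeq2 (0.37) and at clustering resolution 0.8 (0.19). Within cluster 0 it fell from 30.9 ± 1.3 to 18.9 ± 5.1 CPM (-0.72, adjusted p 0.000579), and within cluster 8 from 6.71 ± 2.2 to 3.57 ± 2.0 (-0.98, adjusted p 0.0482). In cluster 1, where its level was highest, it measured 231 ± 25 in WT and 226 ± 25 in KO (-0.04, adjusted p 0.784). The cluster with the most Unc5d was the one with the larger share in KO.

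Other members were unequal across these clusters. Ntng1 in cluster 8 stood at 7.77 ± 2.2 in WT, 18.2 ± 2.9 in Het and 49.7 ± 10 in KO (2.65, adjusted p 1.36e-08 for KO against WT). In cluster 0 its value was 1.10, adjusted p 0.00322, and in cluster 1 0.26, adjusted p 0.52. Unc5c fell in cluster 0 from 46.7 ± 3.9 to 16.4 ± 2.4 (-1.50, adjusted p 2.66e-09) and in cluster 1 from 11.9 ± 1.3 to 4.54 ± 1.2 (-1.37, adjusted p 1.17e-05). In cluster 8, with the highest Unc5c, it measured 110 ± 17 and 95.9 ± 14 (-0.19, adjusted p 0.239). Epha4 fell in cluster 8 (-1.23, adjusted p 6.79e-07), where Efna5 fell too (-2.32, adjusted p 0.000404), and Dcc rose in cluster 0 (0.89, adjusted p 3.94e-05). Differences between clusters were not tested.

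**Figure D4:**
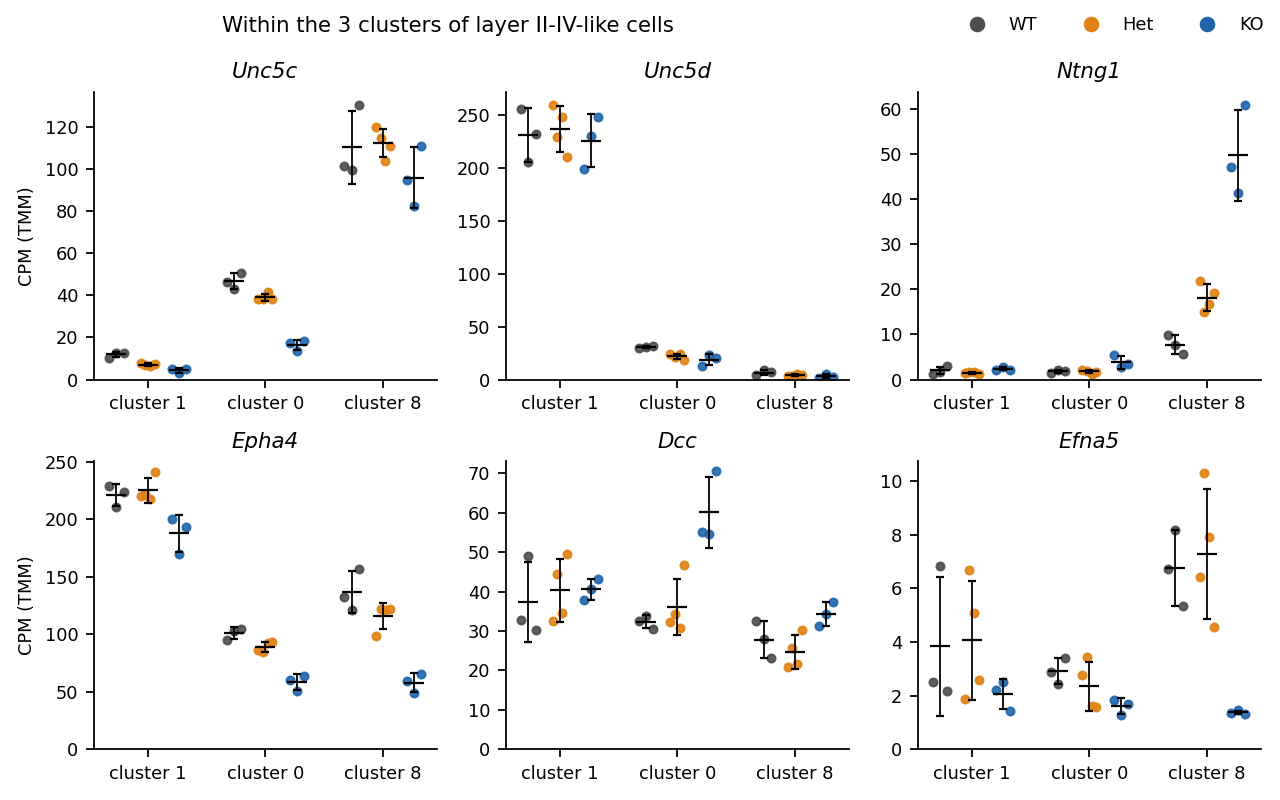
CPM (vertical axis, TMM-scaled within each cluster) of members in the single clusters of layer II-IV-like cells, 1 point per embryo with the mean ± SD of 3 WT, 4 Het and 3 KO embryos. The mean of Unc5d in KO lies at or below that in WT in each cluster, and Ntng1 averages 49.7 ± 10 in KO cells of cluster 8.

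In Het against WT, 2 of 30 members were called in layer II-IV-like cells, with 6.4% of all genes. Epha6 was lower (-0.78, adjusted p 0.02) and Ntng1 higher (0.69, 0.00759), though Ntng1 stood at -0.42, adjusted p 0.417 in cluster 1 alone and at 0.02, adjusted p 0.979 in cluster 0. The Epha6 call was lost without WT1 or WT3 (-0.93 to -0.63), and with prefix as a covariate Epha6 stayed called (-1.30, adjusted p 0.0219) while Ntng1 did not (0.68, adjusted p 0.104). Within 1 prefix, KO against Het1 to Het3 had 11 of 29 called, with 12.7% of all genes. There Unc5c stood at -1.04 (adjusted p 7.39e-06), Epha6 at -1.36 (0.000353), Efna5 at -1.34 (0.00091), Ntng1 at 0.83 (0.000611) and Dcc at 0.61 (7.31e-05), and these 5 calls held with any 1 embryo left out. Epha10 and Ntn4 kept an adjusted p under 0.05 in 2 of 6 such fits each and were not called by DESeq2 (0.81 and -1.10).

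In layer V-VI-like cells, which mostly project below the cortex, 14 of 30 members were called in KO against WT, 7 in each direction, with 22.8% of all 14085 genes (11.2% higher, 11.7% lower). The median size of the log2 fold change was 0.38 over members and 0.18 over all genes. Efna5 measured 23.1, 22.2 and 21 in WT, 18.3, 17.8, 18.5 and 15.2 in Het and 5.0, 4.82 and 6.38 in KO. The 3 groups were apart, in falling order (log2 fold change -2.03, SE 0.11, adjusted p 6.26e-08). In cluster 2 of these cells, led by Hs3st4, Sybu and Fezf2, it fell from 28.9 ± 0.68 to 5.1 ± 1.1 (-2.49, adjusted p 3.27e-09), and in cluster 6, led by Crym, Grp and Calb2, from 10.6 ± 2.1 to 6.04 ± 0.83 (-0.83, adjusted p 0.00564).

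Ntn1, the founding secreted netrin, measured 0.745, 0.899 and 0.856 in WT, 0.694, 0.388, 0.389 and 0.564 in Het and 0.219, 0.416 and 0.14 in KO, on 58 UMIs in WT and 16 in KO. KO was below WT and overlapped with Het (log2 fold change -1.75, SE 0.38, adjusted p 0.0036). Ntn4 fell from 2.04 ± 0.12 to 1.14 ± 0.063 (log2 fold change -0.83, SE 0.21, adjusted p 0.00794). Unc5d measured 12, 11 and 14.7 in WT, 6.34, 7.77, 10.8 and 7.99 in Het and 6.31, 6.72 and 7.54 in KO. KO and Het overlapped, and both were below WT (log2 fold change -0.87, SE 0.16, adjusted p 0.00155). It fell in both clusters (-1.13 in cluster 2 and -0.57 in cluster 6).

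The other called netrin receptors rose. Unc5a measured 10.5, 12.3 and 12.4 in WT, 13.4, 13.9, 14.8 and 14.3 in Het and 18.3, 18.3 and 17.9 in KO. The 3 groups were apart, in rising order (log2 fold change 0.63, SE 0.08, adjusted p 5.12e-05). Unc5b rose from 1.46 ± 0.16 to 2.99 ± 0.83 (log2 fold change 1.03, SE 0.22, adjusted p 0.00383), and Dcc from 36.9 ± 4.9 to 48.3 ± 5.7 (log2 fold change 0.39, SE 0.11, adjusted p 0.0148). The Dcc call was lost without WT1 or KO3 (0.29 to 0.48). Neo1, a Dcc relative that also binds repulsive guidance molecules, rose from 96.7 ± 18 to 130.2 ± 12 (log2 fold change 0.43, SE 0.11, adjusted p 0.00979). Unc5c measured 6.57 ± 0.73 in WT and 7.45 ± 2.0 in KO and was not called (adjusted p 0.568).

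Of the Eph genes, Ephb6, a receptor without kinase activity, measured 14.5, 13.9 and 13.8 in WT, 12.7, 13.1, 12.8 and 11.9 in Het and 10.1, 10.5 and 10.9 in KO, with KO below all others (log2 fold change -0.43, SE 0.07, adjusted p 0.000815). Epha7 (-0.37) and Efna4 (-0.29) also fell, and Efna2 (0.29), Efnb1 (0.47) and Efnb2 (0.57) rose. The Efna4 call was lost without WT1, WT3, KO1 or KO3 (-0.36 to -0.23). Under the prefix covariate 9 of the 14 calls were kept. Those lost were Unc5d (-0.92, adjusted p 0.0722), Ntn1 (-1.56, adjusted p 0.153), Neo1 (0.34, adjusted p 0.333), Efna4 (-0.42, adjusted p 0.0917) and Efna2 (0.24, adjusted p 0.158), and Ntn4 (-1.28) and Dcc (0.66) were larger in size by over 1.5 times. The rest, not called, were Efna1, Efna3, Efnb3, Epha10, Epha3, Epha4, Epha5, Epha6, Epha8, Ephb1, Ephb2, Ephb3, Ephb4, Ntng1, Ntng2 and Unc5c. Within 1 prefix 12 of 29 were called, with 9.06% of all genes, and Efna5 stood at -1.76 (adjusted p 1.12e-06). DESeq2 called 9, not Ephb6, Ntn4 or Ntng2 (-0.30, -0.91 and 0.97). With 1 embryo left out, Ntng2 and Ephb6 kept an adjusted p under 0.05 in 1 of 6 fits, Efna4, Unc5b and Neo1 in 2 and Ntn4 in 5. With at most 5% mitochondrial UMIs, the KO against WT calls of Ntn1 (-1.65) and Unc5b (0.62) were lost.

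The KO change of each member was compared between classes in 1 fit with an interaction term. No prefix term was fitted here, so a prefix effect that differs between classes cannot be told apart from genotype in these differences. Between layer II-IV-like and layer V-VI-like cells 8 of 30 members differed, with 10.1% of all 15022 genes. The log2 fold change in layer II-IV-like cells minus that in layer V-VI-like cells was -2.05 (SE 0.26, adjusted p 7.85e-05) for Epha6 and -1.36 (SE 0.24, adjusted p 0.00117) for Unc5c. It was 1.62 (SE 0.15, adjusted p 3.94e-06) for Ntng1 and 1.22 (SE 0.18, adjusted p 0.000248) for Unc5d, the latter with the cluster shares given above. Unc5a (-0.66), Efnb3 (-0.26), Epha3 (0.33) and Epha5 (0.35) differed by less.

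Interneuron-like cells, inhibitory neurons that migrate in from the ventral forebrain, had 4 of 27 members called in KO against WT, all higher, with 7.82% of all 12802 genes (3.61% higher). Unc5c measured 33.6, 39.9 and 40.2 in WT, 33, 35.3, 33.5 and 34.6 in Het and 51.3, 45.2 and 55 in KO. Each KO embryo was above all WT and Het embryos (log2 fold change 0.41, SE 0.09, adjusted p 0.0194). Without KO1 or KO3 it was not called (0.34 to 0.49). In layer II-IV-like cells the same gene fell, and the difference between these changes was 1.64 (SE 0.08, adjusted p 8.14e-08). It stayed called with any 1 embryo left out.

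Epha5 measured 2142, 1464 and 2106 in WT, 2226, 2055, 1866 and 2235 in Het and 2812, 2767 and 2581 in KO, with KO above all others (log2 fold change 0.51, SE 0.13, adjusted p 0.0285). Ephb3 measured 8.53, 7.32 and 8.18 in WT, 8.96, 9.97, 9.8 and 7.27 in Het and 12.9, 12.1 and 13.3 in KO, again with KO above all others (log2 fold change 0.68, SE 0.15, adjusted p 0.0168). The Epha5 call was lost without WT3 or any 1 KO embryo (0.36 to 0.61), and the Ephb3 call without WT2, WT3 or any 1 KO embryo (0.61 to 0.72) or with at most 5% mitochondrial UMIs (0.55). Efnb1 rose from 40.8 ± 5.4 to 59 ± 3.6 (log2 fold change 0.53, SE 0.10, adjusted p 0.00916), not called without KO2. In the fit with the prefix term 0 of the 4 calls were kept, with Unc5c (0.44, adjusted p 0.56), Efnb1 (0.44, adjusted p 0.617), Epha5 (0.64, adjusted p 0.471) and Ephb3 (0.28, adjusted p 0.925) all lost. The members without a call were Dcc, Efna2, Efna3, Efna4, Efna5, Efnb2, Efnb3, Epha10, Epha3, Epha4, Epha6, Epha7, Epha8, Ephb1, Ephb2, Ephb6, Neo1, Ntn1, Ntn4, Ntng1, Unc5a, Unc5b and Unc5d. Within 1 prefix Unc5c was the 1 member called of 27 (0.57, adjusted p 0.0188), with 0.588% of all genes, and not without Het2, KO1 or KO3.

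Against layer II-IV-like cells, 6 of 30 members changed differently in interneuron-like cells, with 5.73% of all 14836 genes. Beside Unc5c they were Ntn4 (1.44), Epha4 (0.59), Efnb2 (-0.47), Dcc (-1.14) and Ntng1 (-2.06). Against layer V-VI-like cells 6 of 30 differed, with 4.86% of all 14330 genes. Efna5 differed by 1.61 (SE 0.21, adjusted p 0.000795), since it fell in layer V-VI-like cells and stood at 22.2 ± 3.8 in WT and 16.8 ± 3.7 in KO interneuron-like cells (adjusted p 0.234). The others were Ntn4 (1.09), Unc5d (0.72), Epha5 (0.56), Epha3 (0.41) and Efnb2 (-0.65).

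**Figure D5:**
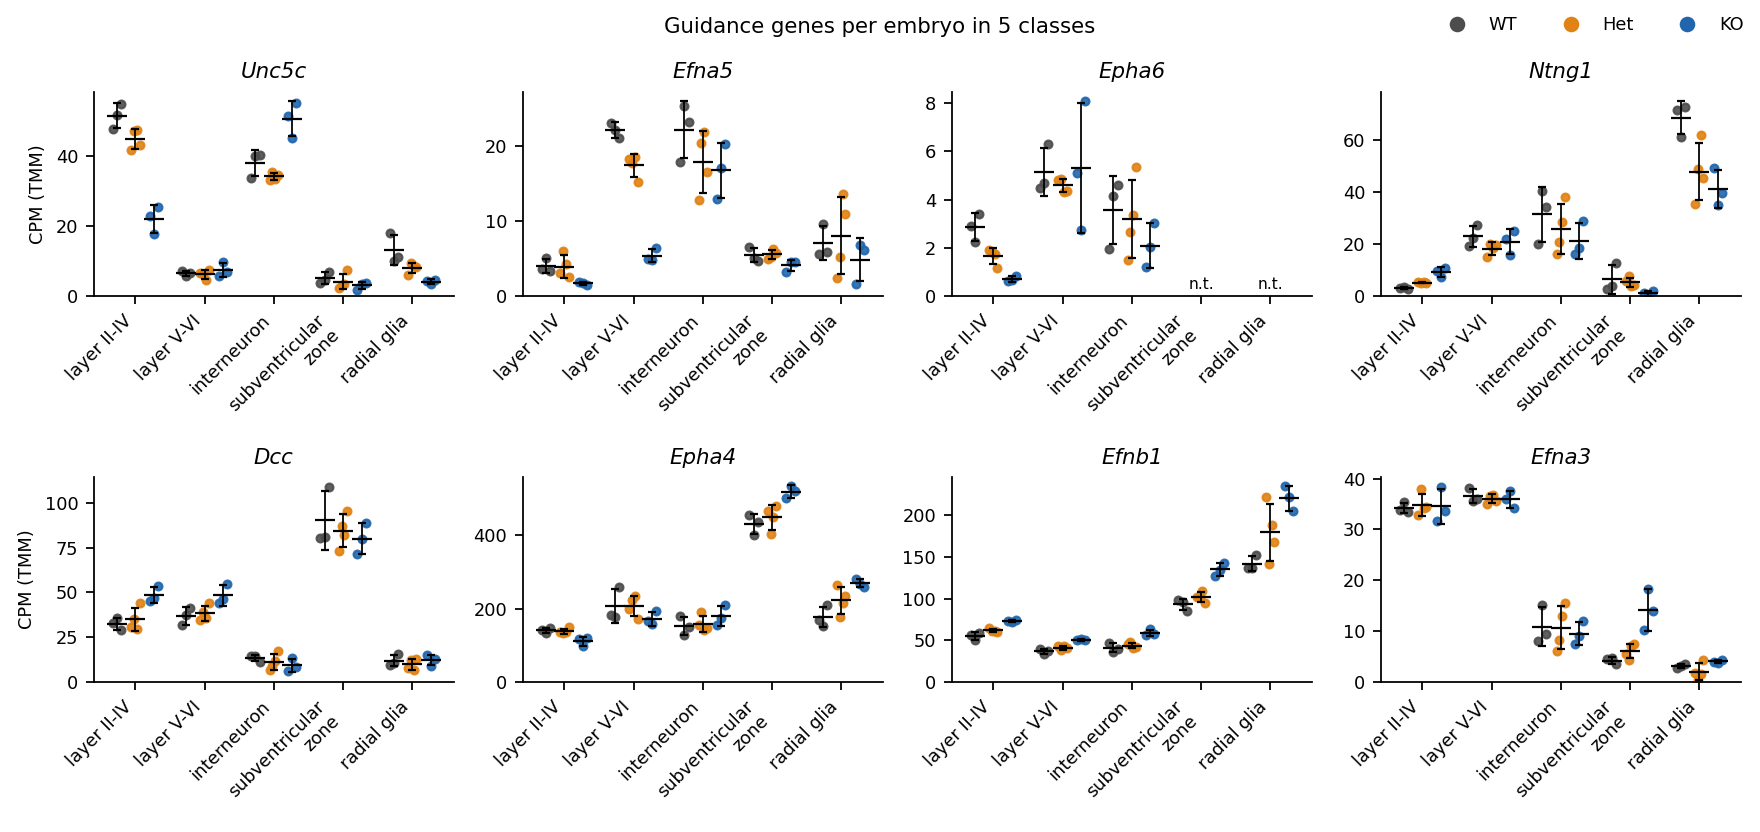
CPM (vertical axis, TMM-scaled within each class) of members in several classes, 1 point per embryo with the mean ± SD of 3 WT, 4 Het and 3 KO embryos. Unc5c is lower in KO in layer II-IV-like cells (21.9 ± 4.0 against 51.4 ± 3.5) and higher in interneuron-like cells (50.5 ± 5.0 against 37.9 ± 3.7).

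In subventricular zone-like intermediate progenitors, precursors of excitatory neurons, 10 of 26 members were called in KO against WT, 5 in each direction, with 18.3% of all 11743 genes (8.58% higher, 9.71% lower). These cells made up 3.17% to 3.51% of WT and 5.34% to 6.19% of KO embryos. Efna3, at 4.29 CPM in these cells and 34.7 in layer II-IV-like cells of WT, measured 4.44, 4.67 and 3.48 in WT, 5.52, 4.29, 7.0 and 7.49 in Het and 10.2, 18.3 and 14 in KO. Every KO embryo was above the others (log2 fold change 1.72, SE 0.27, adjusted p 0.000452). Efnb3 measured 21.4, 40.9 and 32 in WT, 27.9, 33.1, 36.2 and 30.7 in Het and 51.9, 49.4 and 52.5 in KO, also with KO above the rest (log2 fold change 0.70, SE 0.15, adjusted p 0.00446). Ephb1 measured 39.5, 36.9 and 48.9 in WT, 36.1, 43.4, 28 and 52.2 in Het and 23.8, 23.1 and 28 in KO, with KO below WT (log2 fold change -0.73, SE 0.18, adjusted p 0.00926).

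Neo1 measured 88.3, 96.3 and 91.7 in WT, 82.2, 76.3, 90.7 and 87.1 in Het and 71.2, 65.5 and 67.1 in KO, with KO below WT (log2 fold change -0.44, SE 0.08, adjusted p 0.00142). Ntng1 measured 2.61, 3.97 and 12.9 in WT, 5.87, 7.63, 3.86 and 4.24 in Het and 1.32, 0.218 and 2.13 in KO, on 79 UMIs in WT and 24 in KO (log2 fold change -2.28, SE 0.58, adjusted p 0.012). WT3 was the highest WT embryo for Ntng1 and Ephb1, and without it neither was called (-1.32 and -0.60). Ephb2 (-0.40) and Epha7 (-0.35) fell, and Epha3 (0.62), Efnb1 (0.53) and Epha4 (0.27) rose. Epha7 was not called without WT1, WT3, KO1 or KO2 (-0.45 to -0.21), nor Epha4 without WT2 or KO2 (0.22 to 0.31). At clustering resolution 0.8 the calls of Ntng1 (-0.89), Ephb1 (-0.38), Ephb2 (-0.18), Epha7 (-0.20) and Epha4 (0.14) were lost, and DESeq2 did not call Epha7 (-0.36). With prefix as a covariate Efna3 alone of the 10 calls was kept (2.14, adjusted p 0.0156), and Ephb1 (-0.19, adjusted p 0.762), Ephb2 (-0.24, adjusted p 0.468) and Epha7 (-0.54, adjusted p 0.154) moved in size by over 1.5 times. Within 1 prefix 9 of 25 were called, with 5.46% of all genes, Efna3 at 1.30 (adjusted p 0.0068) among them. DESeq2 called 6, not Epha7, Neo1 or Ephb1 (-0.36, -0.29 and -0.52). Of the 6 fits with 1 embryo left out, Neo1 and Ephb1 kept an adjusted p under 0.05 in 1 each, Epha7 in 2 and Epha5 in 4. Members not called in KO against WT were Dcc, Efna2, Efna4, Efna5, Efnb2, Epha5, Ephb3, Ephb4, Ephb6, Ntn1, Ntn4, Ntng2, Unc5a, Unc5b, Unc5c and Unc5d.

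Radial glia-like cells, named for the neural stem cells of the cortex, formed a cluster that scored higher for oligodendrocyte precursor (3.8) than for radial glia markers (2.85). They had 7 of 23 members called, 4 higher and 3 lower, with 20.5% of all 11896 genes (9.24% higher, 11.3% lower). Unc5c measured 17.9, 10.2 and 11.2 in WT, 6.05, 9.34, 8.58 and 8.44 in Het and 4.37, 3.43 and 4.72 in KO, on 126 UMIs in WT and 56 in KO. KO was below all others (log2 fold change -1.57, SE 0.27, adjusted p 0.000627). Epha4 measured 169.5, 153 and 209 in WT, 266, 177, 215 and 234 in Het and 281, 267 and 259 in KO, with KO above WT (log2 fold change 0.61, SE 0.12, adjusted p 0.00232). Efna4 measured 13.2, 13.2 and 16.8 in WT, 22.3, 17.2, 12.4 and 20.5 in Het and 22.2, 19.8 and 21.4 in KO, with KO above WT (log2 fold change 0.56, SE 0.19, adjusted p 0.0429). The Efna4 call was lost without WT1, WT2 or any 1 KO embryo (0.49 to 0.69), with DESeq2 (0.56) and with at most 5% mitochondrial UMIs (0.54). Ntng1 (-0.70) and Neo1 (-0.50) fell, and Efnb1 (0.64) and Efnb2 (0.62) rose. Under the prefix covariate Efnb2 alone of the 7 calls was kept (0.86, adjusted p 0.00373), and Neo1 moved by over 1.5 times (-0.26, adjusted p 0.446). No call was made for Dcc, Efna2, Efna3, Efna5, Efnb3, Epha3, Epha5, Epha7, Ephb1, Ephb2, Ephb3, Ephb4, Ephb6, Ntn1, Ntn4 and Unc5d. Within 1 prefix 2 of 23 were called, with 2.66% of all genes. Epha5 (0.43, adjusted p 0.0275) lost its call without any 1 of Het1 to Het3 or KO1, and Efnb2 (0.40, 0.0199) without Het2 or any 1 KO embryo.

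Dividing-like cells had 6 of 25 members called, with 9.94% of all 12078 genes. Their cluster 12, led by Ttr, scored 3.56 for choroid plexus and 2.68 for dividing markers, with 0 choroid plexus markers in at least 10% of its cells. Their cluster 13 scored 2.57 for ganglionic eminence and 2.39 for dividing markers. Cluster 13 held 1.73% to 2.47% of the cells of WT embryos and 3.43% to 4.31% in KO, and cluster 12 held 2.54% to 3.33% and 2.88% to 3.21%, and the part of these shares in the calls was not tested. Efnb1 (0.54), Efna2 (0.44) and Epha4 (0.26) rose, and Ntng1 (-0.94), Epha7 (-0.61) and Neo1 (-0.52) fell. Efnb1 kept its call with any 1 embryo left out. Epha4 lost it without any 1 embryo but Het4 and KO2 (0.21 to 0.36), Ntng1 without any 1 WT embryo, KO2 or KO3 (-1.10 to -0.81), Epha7 and Neo1 without WT1, WT2, KO2 or KO3 (-0.74 to -0.54 and -0.64 to -0.39), and Efna2 without WT1, WT3 or KO2 (0.35 to 0.53). Epha4 also lost it at clustering resolution 0.8 (0.16), with doublets removed (0.24), with WT and KO alone in the fit (0.26), with at least 3000 UMIs per cell (0.25) and with at most 5% mitochondrial UMIs (0.24), and Ntng1 with at least 3000 UMIs per cell (-0.77). Under a prefix term 0 of the 6 calls were kept, and Ntng1 (-0.22, adjusted p 0.906) and Epha4 (0.15, adjusted p 0.817) moved by over 1.5 times. Within 1 prefix 0 of 24 were called by edgeR and 0 by DESeq2, with 3 at an unadjusted p under 0.05 (7.72% of all genes) and 0.224% of all genes called. The remaining members, not called, were Dcc, Efna3, Efna4, Efna5, Efnb2, Efnb3, Epha3, Epha5, Ephb1, Ephb2, Ephb3, Ephb4, Ephb6, Ntn1, Ntn4, Unc5a, Unc5b, Unc5c and Unc5d.

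Striatal inhibitory-like cells had 5 of 25 members called, with 16.8% of all 11869 genes. Efna2 measured 64.3, 63.5 and 59.4 in WT, 62.4, 69.7, 73.7 and 75.3 in Het and 74.2, 88.1 and 77.1 in KO, with KO above WT (log2 fold change 0.36, SE 0.09, adjusted p 0.00807) and no call without KO2 (0.28). Efnb1 (0.43) and Epha4 (0.29) rose, and Epha7 (-0.58) and Ntng1 (-0.50) fell. Epha4 was not called without WT2, WT3 or KO3 (0.21 to 0.36), nor Ntng1 without any 1 WT or KO embryo (-0.59 to -0.36). Ntng1 also turned to 0.0922 at clustering resolution 0.8, and was not called with DESeq2 (-0.49), with doublets removed (-0.43), with at most 5% mitochondrial UMIs (-0.25) or with at least 3000 UMIs per cell (-0.51). Once prefix was a covariate 0 of the 5 calls were kept, and Ntng1 moved by over 1.5 times (-0.09, adjusted p 0.93). Within 1 prefix Epha5, not called in KO against WT here, was the 1 member called of 24 (0.59, adjusted p 0.0165), with 0.598% of all genes. It was not called without Het2, Het3 or KO3 (0.45 to 0.71), and DESeq2 called 0 members. Without a call were Dcc, Efna3, Efna4, Efna5, Efnb2, Efnb3, Epha3, Epha5, Epha6, Epha8, Ephb1, Ephb2, Ephb3, Ephb6, Neo1, Ntn1, Ntn4, Unc5a, Unc5c and Unc5d. In Het against WT Epha7 was lower there, at 93.3 ± 16 in WT and 64.2 ± 10 in Het (-0.54, adjusted p 0.019), with 2.43% of all genes called. This call was lost without WT1, WT3, Het2 or Het3 (-0.63 to -0.40), with prefix as a covariate (-0.51, adjusted p 0.515) and at clustering resolution 0.8 (-0.43).

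Layer I-like Cajal-Retzius cells had 5 of 23 members called, all higher, with 5.46% of all 10527 genes (2.83% higher). DESeq2 called 2, not Efnb1, Epha5 or Dcc (0.95, 0.81 and 0.56), and with at most 5% mitochondrial UMIs Dcc (0.57) and Epha3 (0.32) were not called. Dcc measured 27.9, 38.7 and 30.5 in WT, 36.4, 36, 31.3 and 40.3 in Het and 48.1, 41.3 and 53.4 in KO, with KO above all others (log2 fold change 0.56, SE 0.16, adjusted p 0.04), and was not called without WT1, WT3, KO1 or KO3 (0.47 to 0.71). Efnb1 (0.93), Epha5 (0.79), Efnb2 (0.66) and Epha3 (0.41) also rose. Efnb1 was not called without WT1, WT3 or KO2 (0.68 to 1.09), Epha5 without WT1 or KO2 (0.46 to 0.94), and Epha3 without any 1 WT embryo, KO1 or KO2 (0.34 to 0.52). With prefix as a covariate Epha5 alone of the 5 calls was kept (1.21, adjusted p 0.0429). Among layer I-like cells within 1 prefix 0 of 23 were called by edgeR and 0 by DESeq2, with 6 at an unadjusted p under 0.05 (11% of all genes) and 1.14% of all genes called. The uncalled members were Efna2, Efna3, Efna4, Efna5, Efnb3, Epha4, Epha7, Ephb1, Ephb2, Ephb6, Neo1, Ntn4, Ntng1, Ntng2, Unc5a, Unc5b, Unc5c and Unc5d.

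Mural-like cells had 1 of 13 members called, with 0.286% of all 9442 genes. Epha4 measured 34.6, 40.9 and 47.9 in WT, 11.1, 17.9, 20.9 and 21.9 in Het and 8.44, 16.9 and 13 in KO. Het and KO overlapped, and both were below WT (log2 fold change -1.71, SE 0.30, adjusted p 0.0361). The call was lost without any 1 WT or KO embryo or Het2 (-1.96 to -1.43), with prefix as a covariate (-1.35, adjusted p 0.955), with doublets removed (-1.96) and with at most 5% mitochondrial UMIs (-1.91). KO against Het1 to Het3 called 0 of 12 by edgeR and 0 by DESeq2 in these cells, with 0 at an unadjusted p under 0.05 and 0.0% of all genes called. The 12 members not called were Efna1, Efnb1, Efnb2, Efnb3, Epha2, Epha3, Epha5, Epha7, Ephb4, Neo1, Ntn1 and Unc5b. In erythroid-like and microglia-like cells, 5 and 3 members could be tested, and 0 were called by edgeR or by DESeq2 (3.44% and 0.0229% of all genes by edgeR), with 0 and 1 at an unadjusted p under 0.05. Within 1 prefix 0 of 3 and 0 of 1 were called there by either tool, with 1 and 0 at an unadjusted p under 0.05 and 3.59% and 0.0% of all genes called.

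In Het against WT, classes other than layer II-IV-like and striatal inhibitory-like cells had 0 members called by edgeR. Of all genes 0.824% were called in layer V-VI-like cells, 2.57% in radial glia-like cells, 0.349% in the intermediate progenitors, 0.152% in layer I-like, 0.0248% in dividing-like and 0.0106% in mural-like cells, and 0.0% in interneuron-like, erythroid-like and microglia-like cells. At an unadjusted p under 0.05, layer V-VI-like cells had 11 of 30 members (18.3% of all genes) and radial glia-like cells 7 of 23 (18.3% of all genes). The other 7 classes had between 0 and 5 members, with 7.04% to 16.7% of all genes. DESeq2 called 1 member in dividing-like and 2 in layer V-VI-like cells.

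Genes that act with these receptors were read from 3 pathway lists. Of 23 partners of netrins, Unc5, Dcc and neogenin, 14 of 21 tested were called in layer II-IV-like cells in KO against WT, 4 higher and 10 lower, with 30.3% of all genes called (median log2 fold change -0.22, against -0.01 over all genes). Lrrc4c, the partner of netrin-G1, fell from 27.8 ± 0.98 to 9.41 ± 0.89 (log2 fold change -1.56, SE 0.08, adjusted p 8.39e-09) in the cells where Ntng1 rose. The genes with the largest changes were Lrrc4c (-1.56), Adgrl3 (-1.14), Mapt (-0.81) and Flrt2 (-0.81), of which Adgrl3 encodes a latrophilin that binds Unc5 and Flrt proteins. In layer V-VI-like cells 10 of 21 were called, 4 higher and 6 lower (all genes 22.8%), with Adgrl3 (-0.82), Flrt3 (0.59), Mapt (-0.50) and Rgma (-0.50) at the head. In radial glia-like cells 10 of 21 were called, 9 of them lower (all genes 20.5%), with Trim9 (-1.45), Adgrl3 (-1.38), Dscam (-1.31) and Mapt (-1.19) at the head. Within 1 prefix 11 of these partners were called in layer II-IV-like cells (12.7% of all genes), 4 in layer V-VI-like (9.06%) and 3 in radial glia-like cells (2.66%).

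Of 26 genes that carry Eph and ephrin signals, 8 were called in layer II-IV-like cells, 4 in each direction, a share near the 30.3% of all genes, with Ngef (-1.58), Nck1 (-0.88), Vav3 (-0.66) and Vav2 (0.57) at the head. Ngef encodes ephexin, an exchange factor that acts downstream of Epha4. In layer V-VI-like cells 7 of 26 were called, 3 higher and 4 lower (all genes 22.8%), with Vav3 (-1.06), Nck1 (-0.96), Nck2 (0.83) and Tiam1 (-0.70) at the head. Within 1 prefix Ngef was the 1 gene of this list called in layer II-IV-like cells (12.7% of all genes), and 5 were called in layer V-VI-like cells (9.06%). Of 7 transcription factors known to act on these genes, 2 were called in layer II-IV-like cells, again near the share of all genes. Bcl11b rose from 87.1 ± 17 to 318 ± 30 (log2 fold change 1.87, SE 0.12, adjusted p 7.43e-08), and the pair was Bcl11b (1.87) and Lhx2 (0.37), of which Bcl11b was called within 1 prefix as well. Bcl11b was also called higher in layer V-VI-like cells (log2 fold change 0.49, SE 0.07, adjusted p 0.00014), where Unc5c was not called, and in interneuron-like cells (log2 fold change 0.47, SE 0.10, adjusted p 0.0128), where Unc5c rose. A link between Bcl11b and Unc5c was not tested.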

How the data were processed

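Cortices of 10 embryos were measured, 1 library per embryo. For each library the authors deposited UMI counts by gene and barcode, aligned to mm10, with Cell Ranger 6.0.2 named in the submitters' processing notes. The deposited counts are not normalized and carry no cell annotation. A barcode was kept as a cell when it had 1000 UMIs or more, with a mitochondrial share no higher than 10%. Cells were integrated and clustered with Seurat 5.3.0 (2000 variable genes without the members, 30 principal components, resolution 0.4, 24 clusters), and clusters were named from marker genes. Clusters that failed the marker rule (5 of 24) stayed unnamed and entered only the sums over all cells. Doublet scores from scanpy 1.11.5 left few cells above their own threshold, so the top 0.8% per 1000 cells were removed in an alternative. Counts were summed per embryo and class (at least 20 cells in every embryo) and tested with edgeR 4.0.16 (R 4.3.3, TMM, quasi-likelihood test, ~ group over all 10 embryos, Benjamini-Hochberg over all genes tested), after a check on simulated data. DESeq2 1.42.0 was an alternative. The interaction fit kept the embryo as a block. Since single embryos are not assigned to litters, p-values measure the spread between these embryos only.

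The members and lists were chosen with earlier results of these data known. Every member is accounted for, with values of each embryo for members called over all cells and for up to 4 further members per class, and up to 4 called genes per pathway list. Some results for genes of the pathway lists are not reported here. Sequences came from RefSeq on GRCm38.p6. Counting error is largest for low genes, and UMIs are printed beside the values of some of them only.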

Additional observations from a re-analysis of the deposited data

Results flagged for a closer look

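The KO change of a member differed between 2 classes of cells by the interaction test in 20 cases, in fits without a prefix term. Between layer II-IV-like and layer V-VI-like cells (the former minus the latter, log2 scale) the difference was -2.05 for Epha6, -1.36 for Unc5c, -0.665 for Unc5a, -0.262 for Efnb3, 0.334 for Epha3, 0.352 for Epha5, 1.22 for Unc5d and 1.62 for Ntng1. All but Efnb3 stayed called with any 1 embryo left out, and Efnb3 was lost without WT1, WT2, Het1, Het2, KO1 or KO3 (-0.34 to -0.14).

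Between interneuron-like and layer V-VI-like cells it was 1.61 for Efna5, 1.09 for Ntn4, 0.723 for Unc5d, 0.558 for Epha5, 0.412 for Epha3 and -0.647 for Efnb2. Efna5 and Efnb2 stayed called with any 1 embryo left out. Ntn4 was lost without WT2, WT3, Het2, Het3, KO1 or KO3 (0.94 to 1.31), Unc5d without WT1, WT3, Het2, Het3 or any 1 KO embryo (0.56 to 0.96), Epha5 without KO1 or KO2 (0.40 to 0.69) and Epha3 without any 1 KO embryo (0.30 to 0.47).

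Between interneuron-like and layer II-IV-like cells it was 1.64 for Unc5c, 1.44 for Ntn4, 0.587 for Epha4, -0.467 for Efnb2, -1.14 for Dcc and -2.06 for Ntng1. Unc5c and Ntng1 stayed called with any 1 embryo left out. Ntn4 was lost without WT2, WT3 or any 1 KO embryo (1.08 to 1.77), Epha4 without WT2, WT3, KO2 or KO3 (0.50 to 0.72), Efnb2 without WT1, WT3 or KO3 (-0.60 to -0.38) and Dcc without KO1 or KO3 (-1.50 to -0.97). Of 75 sets of 4 Het values looked at for an embryo far from the others, 0 held one.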

How the results depend on the processing

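In KO against WT over all cells the 7 members called became 6 to 10 under the alternatives (9 with a replicate block) and 6 to 8 with 1 embryo left out. Within classes the 68 calls became 27 with prefix as a covariate, 79 with a replicate block and 60 to 85 otherwise, and 51 to 72 with 1 embryo left out. With 1 embryo left out in turn, 41 of the 68 calls kept an adjusted p under 0.05 in every fit. In Het against WT the 1 call over all cells became 0 with prefix as a covariate, and 2 with a replicate block or with at most 5% mitochondrial UMIs (0 to 2 with 1 embryo left out). The 3 Het calls within classes became 1 with prefix as a covariate, 5 with doublets removed, 6 with DESeq2, 11 with a replicate block and 13 with no filter on low counts (1 to 8 with 1 embryo left out). The 41 calls of KO against Het within 1 prefix became 33 with DESeq2, 46 with a replicate block and 57 with no filter (26 to 43 with 1 embryo left out), and the 20 differences between classes became 25 with no filter (12 to 21). No source used here states that the replicate numbers pair the embryos, so the block results stand only here. In deviations from the group means, same-numbered embryos of different groups correlated between -0.185 and 0.125. Differently numbered embryos of different groups correlated between -0.0898 and 0.145. With such similar ranges, these values cannot tell whether the numbers mark pairs.

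Direction reversed in 5 cases. Unc5d in layer II-IV-like cells went from 0.36 over the class to -0.718, -0.0359 and -0.983 in clusters 0, 1 and 8 alone, fits chosen after seeing the data. Ntng1 in Het against WT stood at -0.417 in cluster 1 alone, and Ntng1 in KO against WT in striatal inhibitory-like cells stood at 0.0922 at clustering resolution 0.8. The cause was not tested. Of 45 calls in classes of several clusters, 43 could be tested in at least 2 clusters (not Ntn4 in layer II-IV-like and Ntn1 in layer V-VI-like cells). Of these, 42 kept the sign of the class in every cluster tested (all but Unc5d), 12 were called with that sign in each, 39 in at least 1, 1 with the opposite sign alone (Unc5d) and 3 in no cluster. Scaling by total counts in place of TMM moved the median log2 fold change of all genes by under 0.1, except in erythroid-like cells (-1.54 in KO, -0.599 in Het) and in microglia-like cells of KO (-0.187).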
